A study of Homo sapiens with 6 samples.

Results

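The RAB small GTPases are described here on 6 arrays of human glioblastoma cell lines, with and without added miR-338-5p. The genes are those whose symbol is RAB followed by a number and at most 1 letter. Of 18394 genes named on the array, 60 were RAB genes, and where a gene had several probe sets (the groups of probes that are read out as 1 value) the one with the highest mean over the 6 arrays was taken. Probe sets were thus chosen by that mean, the only measured value in the choice, which does not enter either comparison, although the family was singled out knowing that RAB1A, RAB28, RAB18 and RAB22A were low with the mimic. Of the 60, 51 passed a filter on low signal that kept 13795 genes. RAB1C is listed as a pseudogene in RefSeq. RAB34, RAB4B, RAB6C and RAB6D stood only on probe sets that name several genes and were not analysed here.

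The lines were A172, T98G and U87MG, established lines grown from human glioblastomas and obtained from a cell bank per the labels. In each line, 1 array holds cells transfected with a negative control (control) and 1 holds cells transfected with a precursor that gives miR-338-5p (mimic), both harvested after 24 hours. This gives 3 control arrays and 3 mimic arrays, 1 pair for each line. The deposited design states that the targets of this microRNA were sought. The labels give neither the dose of the oligonucleotides nor the number of cultures behind an array, and no untransfected cells were analysed here.

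RAB proteins are molecular switches of membrane traffic. Bound to GTP and anchored by a lipid tail, each sits on its own set of membranes and recruits effectors that bud, move, tether and fuse vesicles. Exchange factors load the GTP, GTPase activating proteins end the signal, and the GDI proteins lift the spent RAB off the membrane. A microRNA pairs with messenger RNAs mainly through its seed, bases 2 to 8, and usually lowers the messages it pairs with.

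The mature sequence of miR-338-5p is shown because the transfected precursor gives this microRNA. The labels do not give the sequence of the precursor itself. Below it stands the other arm of the same hairpin, whose seed differs. Both were taken from RefSeq (GRCh38.p14, minus strand of chromosome 17, bases 81125923 to 81125944 for the 5p arm and 81125887 to 81125908 for the 3p arm), and capitals mark the seed:
hsa-miR-338-5p: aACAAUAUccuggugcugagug
hsa-miR-338-3p: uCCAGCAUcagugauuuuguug
Among 2370 mature human microRNA names in that table, the seed ACAAUAU belonged to 1, miR-338-5p itself. Messages of the RAB genes were not searched for sites that match it.

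Levels are RMA log2 values, on which a step of 1 is a doubling of signal, and the filter level was a mean of 4.28. They are compared within a gene, not between genes. Array medians lay between 5.06 and 5.14. Of 13 astroglial and glioma markers, 9 passed the filter, with GFAP, EGFR, VIM, CD44, NES and ALDH1L1 at or above 4.28 on every array, while S100B, AQP4 and FABP7 lay below it on all 6. For other cell types, 1 of 3 leukocyte, 1 of 3 endothelial, 2 of 3 epithelial, 3 of 3 neuronal and 0 of 2 oligodendrocyte markers passed. PTPRC, the pan-leukocyte marker, was under the filter level on 5 of 6 arrays. The epithelial marker KRT8 read 10.41 and 10.49 on the A172 control and mimic arrays, and 4.90 to 5.63 in the other lines. Of the neuronal markers, SNAP25 was highest in U87MG, at 8.105 and 7.915, and SYT1 in A172, at 6.299 and 6.675. In RNA from whole cultures, fewer cells that express a gene and less of its RNA in each cell cannot be told apart.

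With the mimic, 4 of the 51 RAB genes fell and 0 rose, in limma's paired test with Benjamini-Hochberg adjustment over all 13795 genes (adjusted p under 0.05). RAB1A, RAB28, RAB18 and RAB22A were the genes that fell, and they act at different membranes, from the Golgi to lipid droplets and endosomes. Over all tested genes, 0.79% were called lower and 0.319% higher, against 7.84% and 0% of the RAB genes. The family was picked with these 4 genes in view, so that gap is a description. At an unadjusted p under 0.05, 8 RAB genes were lower and 4 higher, or 15.7% and 7.84%, beside 5.84% and 6.0% of all genes. With arrays centred on their medians, which moved the changes by -0.02, these counts were 10 lower and 0 higher. Over all genes, 1495 had such a p in either direction there, beside 1634 in the reported fit. The 1495 were not split by direction, so the 10 and 0 have no all-gene share beside them. The median change of the 51 was -0.05 on the log2 scale, beside 0.01 over all genes tested, and 29 of them had a negative change. That median was -0.03 without A172, -0.0095 without T98G and -0.02 without U87MG, and -0.01 over all 60 RAB genes with no filter. In 13 of them (25.5%) the difference was negative in every line and in 7 (13.7%) positive in every line, beside 15.8% and 18.5% of all genes. Without the U87MG arrays limma called 0 RAB genes and 0 of all genes (7 RAB genes lower and 1340 genes in all at an unadjusted p under 0.05), without A172 only RAB1A and RAB28, and without T98G RAB1A, RAB28 and RAB22A.

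RAB1A, which serves vesicles that leave the endoplasmic reticulum for the Golgi, had the largest change of the family. On the control arrays of A172, T98G and U87MG it read 10.46, 10.36 and 10.35. On the mimic arrays it read 8.87, 8.45 and 8.66 in the same order. The control levels of the 3 lines lay close together, and every mimic array was far below every control array. The change was -1.73 ± 0.16 (SD, n = 3; adjusted p = 0.00246 in limma), which is 3.32-fold lower, and T98G had the largest drop, -1.91.

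The closest relative of RAB1A, RAB1B, which works in the same transport step, stayed within 0.06 of its control level in each line. Its control levels were 10.33, 10.52 and 10.78 in A172, T98G and U87MG, and its mimic levels were 10.35, 10.46 and 10.77. Its change was -0.01 with a 95% interval from -0.18 to 0.16, which does not reach the interval of RAB1A, from -1.94 to -1.52. The pseudogene RAB1C changed by -0.09 ± 0.16, with differences of 0.09, -0.12 and -0.23. Among other RAB genes of the endoplasmic reticulum and Golgi, RAB2A was at 0.08 (95% interval -0.09 to 0.25) and RAB2B at 0.01 (-0.20 to 0.21). RAB6A, which directs traffic back through the Golgi, was at -0.10 (-0.28 to 0.07), and its relative RAB6B at -0.06. RAB33B, a Golgi RAB that binds an autophagy complex, was slightly higher in each line (0.24, 0.11 and 0.24; adjusted p = 0.37). Of 11 tested genes of this group 1 fell, and the group's median was -0.01.

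RAB28, a distant member known from photoreceptor cilia and inherited cone-rod disease, had a change of nearly the same size in the 3 lines. Control levels were 6.08, 5.81 and 6.72 in A172, T98G and U87MG, and mimic levels were 5.05, 4.82 and 5.66. Each mimic array lay below all control arrays. The differences were -1.03, -0.99 and -1.05, a change of -1.02 ± 0.03 (SD, n = 3; adjusted p = 0.00504 in limma), or 2.03-fold lower.

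RAB18, a RAB of lipid droplets and the endoplasmic reticulum whose loss causes Warburg Micro syndrome, fell by 0.56 on the log2 scale. It read 9.36, 9.08 and 9.31 on the control arrays of A172, T98G and U87MG and 8.80, 8.52 and 8.75 on the mimic arrays. All mimic levels were again below all control levels. The SD over the lines was 0.0026, and the fold was 1.48 (adjusted p = 0.0238 in limma, 0.0529 with no filter on low signal). Without A172, T98G or U87MG that adjusted p was 0.0901, 0.0505 and 0.182. RAB1A, RAB28 and RAB18 were the RAB genes with no overlap between the groups, 5.88% of the 51 beside 1.56% of all genes for that rule in the lower direction, and 0 had all mimic arrays above all control arrays (1.41% of all genes). The same 3 genes were lower by at least 0.5 in every line, as were 0.5% of all genes, and 0 RAB genes were higher by as much in every line (0.181%). The family was picked with these 3 genes in view, so these shares only describe it.

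RAB23, which restrains Hedgehog signalling and acts at cilia, stood just outside the threshold. Its control levels of 7.27, 6.90 and 7.94 became 6.76, 6.58 and 7.47 with the mimic, each line lower than its own control. The change was -0.43 ± 0.11 (adjusted p = 0.0717). RAB24, an atypical RAB tied to autophagy, was at 0.06 ± 0.11. These 2 genes with RAB28 and RAB18 form the group of lipid droplets, autophagy and cilia, in which 2 of 4 fell, but the grouping was made with those 2 falls known.

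Of 8 RAB genes of early endosomes, 1 fell. This was RAB22A, which sorts cargo from early endosomes toward recycling. It had control levels of 8.37, 7.85 and 8.55 in A172, T98G and U87MG, and its mimic levels 7.69, 7.43 and 7.999. The groups overlapped, since the T98G control lay below the U87MG mimic array, but each line was lower than its own control. The change was -0.55 ± 0.13 (SD, n = 3; adjusted p = 0.0359 in limma, 0.0756 with no filter on low signal), or 1.47-fold lower, the smallest of the 4 falls and the one closest to the threshold.

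The relatives of RAB22A on early endosomes had smaller values. RAB31, also called RAB22B and active between the trans-Golgi and endosomes, was at -0.39, -0.22 and -0.24 in A172, T98G and U87MG (adjusted p = 0.201). RAB21, which carries integrins inward, was at -0.40 in A172 but 0.05 in T98G and -0.07 in U87MG. The 3 forms of RAB5, the RAB that defines early endosomes, did not share a direction. RAB5A was at 0.07 (95% interval -0.10 to 0.24), RAB5B at 0.22 (0.02 to 0.42; adjusted p = 0.364) and RAB5C at -0.08 (-0.29 to 0.13). RAB17 and RAB20 were at -0.13 and -0.11, with T98G positive in both.

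**Figure D1:**
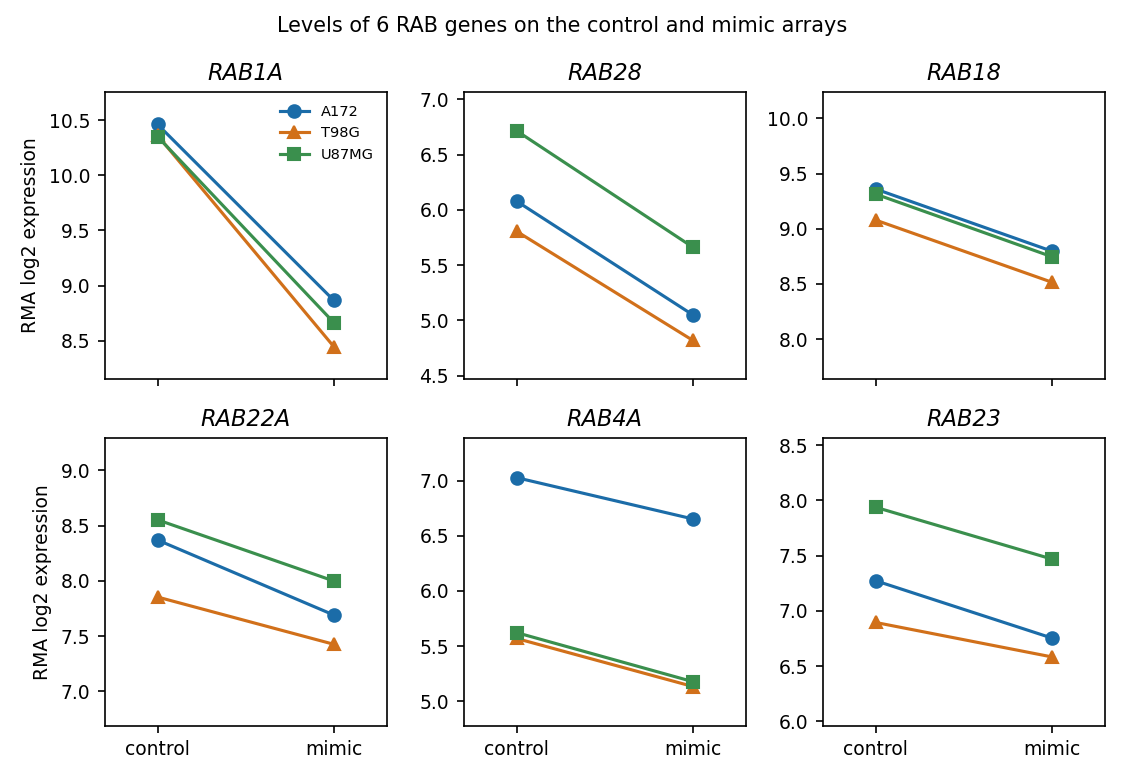
RMA log2 level (vertical axis, each panel spanning the same 2.6 log2 units) of RAB1A, RAB28, RAB18, RAB22A, RAB4A and RAB23 on the control and mimic arrays. Each line joins the 2 arrays of a cell line, and all 18 lines slope down, most steeply for RAB1A, from 10.46, 10.36 and 10.35 to 8.87, 8.45 and 8.66.

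No gene of recycling and delivery to the cell surface passed the test among 11 (1 lower and 1 higher at an unadjusted p under 0.05, median 0.00). RAB4A, which runs rapid recycling from early endosomes, came nearest, with control levels of 7.03, 5.57 and 5.62 and mimic levels of 6.65, 5.14 and 5.18 in A172, T98G and U87MG. Each line was lower by a like amount, -0.42 ± 0.04, at adjusted p = 0.061, the first value outside the threshold after RAB22A. RAB11A and RAB11B, which define the slow recycling compartment, were at -0.02 (95% interval -0.20 to 0.16) and 0.00 (-0.17 to 0.17). RAB8A, a RAB of surface delivery and cilium growth, was at 0.00 (-0.17 to 0.17), while RAB8B was at 0.12, 0.24 and 0.27 (adjusted p = 0.334). RAB10, RAB12, RAB13 and RAB35 lay between 0.04 and 0.12, and RAB14 and RAB15 at -0.10 and -0.07.

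Of 7 genes of late endosomes, lysosomes and related organelles 0 passed in limma (1 at an unadjusted p under 0.05). RAB7A, the RAB of late endosomes and lysosomes, read 11.89, 11.48 and 11.94 on the control arrays of A172, T98G and U87MG and 12.12, 11.61 and 12.16 on the mimic arrays. It was higher in each line, by 0.19 ± 0.05 (adjusted p = 0.359), and its second, dimmer probe set by 0.48, 0.26 and 0.49. RAB9A, which returns receptors from late endosomes to the Golgi, was at 0.01 and RAB29 at 0.06. RAB38, a RAB of melanosomes, was at 0.02, -0.29 and -0.55, at levels from 4.20 to 5.27 that reach the filter level, and its partner RAB32 was at -0.05.

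Of 6 tested genes of regulated secretion 0 passed in limma (0 at an unadjusted p under 0.05), and their changes lay between -0.16 for RAB27A and 0.14 for RAB3D. RAB27A and RAB27B dock secretory granules and exosome-bearing bodies at the cell surface. RAB27A was at 0.00, -0.21 and -0.26, and RAB27B at -0.01, -0.11 and -0.08. RAB3A and RAB3B, of vesicle release, were at -0.07 and -0.08 with mixed signs over the lines. In the RAB40 genes, which join ubiquitin ligases, the changes were -0.24 for RAB40B, 0.04 for RAB40A and 0.10 for RAB40C.

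Outside the 4 genes that fell, the 47 tested RAB genes ranged from -0.43 to 0.22, and 42 of them lay within 0.25 of 0. The 9 RAB genes below the filter (RAB25, RAB33A, RAB37, RAB39A, RAB39B, RAB3C, RAB41, RAB42 and RAB44) had means from 3.02 to 4.28 and line differences from -0.29 to 0.40. They were not tested, and RAB39B, at 4.277, was the nearest to the filter, with RAB17, at 4.40, the first tested. RAB7A, RAB13 and RAB44 had a second probe set. In RAB13 it was at 0.10 against 0.04 for the brighter one, and in RAB44 it had the opposite sign, 0.09 against -0.07, both dim.

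**Figure D2:**
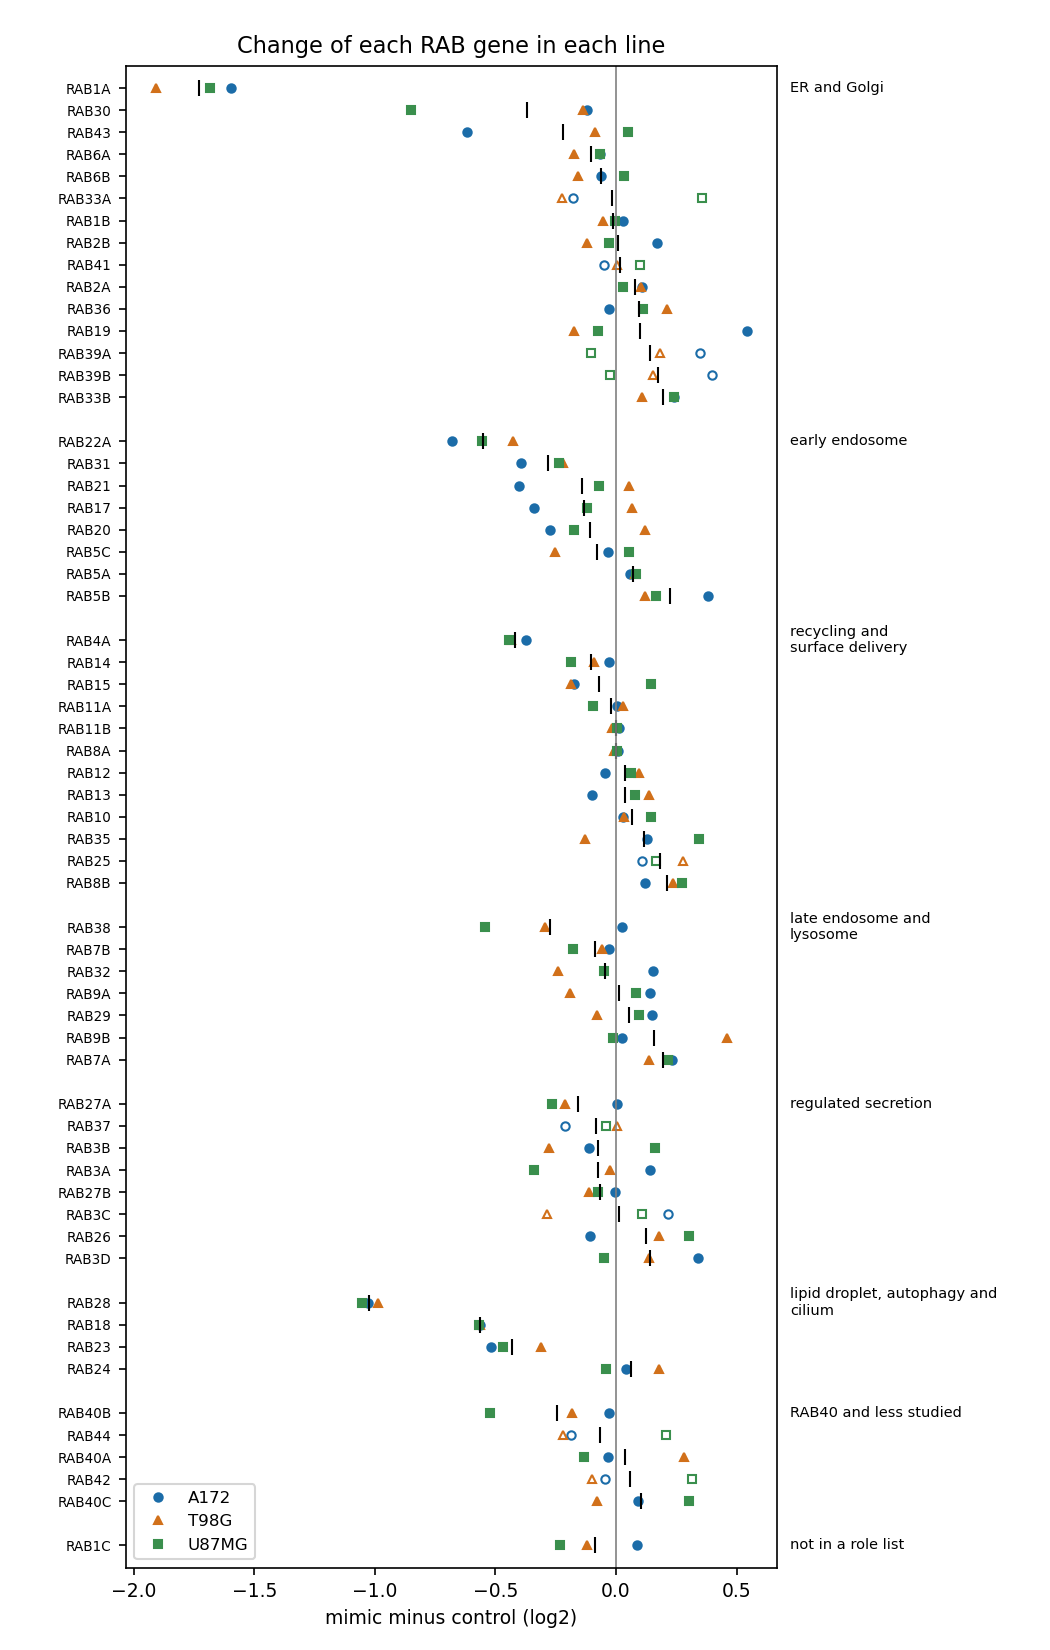
Mimic minus control (log2, horizontal axis) for each of the 60 RAB genes, ordered by role, with 1 symbol for each line and a black tick at the mean of the 3. Open symbols are the 9 genes below the filter on low signal. RAB1A and RAB28 stand apart on the left in all lines, at means of -1.73 and -1.02.

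In several RAB genes most of the difference lay in 1 line. With 1 pair of arrays in each line these differences carry no test, and a difference of response between lines could not be fitted. RAB30, a Golgi RAB, read 5.96 on the U87MG control array and 5.11 on its mimic array, a difference of -0.85. The A172 pair went from 7.24 to 7.11 and the T98G pair from 7.76 to 7.63. RAB40B was at -0.52 in U87MG, -0.18 in T98G and -0.03 in A172. RAB43, a RAB of Golgi structure, was at -0.62 in A172, -0.09 in T98G and 0.05 in U87MG, at low levels from 4.55 to 5.17. A brighter probe set (mean 6.59) that names both RAB43 and ISY1-RAB43 was not analysed. RAB19 was at 0.55 in A172 and at -0.17 and -0.07 in T98G and U87MG, at levels near the filter. Drops of at least 0.5 were seen in 6, 3 and 7 RAB genes of A172, T98G and U87MG, or 11.8%, 5.88% and 13.7% of the 51, respectively, beside 1.73%, 2.25% and 1.84% of all genes. RAB1A, RAB28 and RAB18 were in all 3 sets, and RAB22A was in those of A172 and U87MG. The family was picked with these genes in view, so these shares only describe it. Rises of that size were seen in RAB19 in A172 alone (1.96% of all genes in that line), with 0 in T98G (1.46%) and 0 in U87MG (1.38%).

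The lines themselves differed in most RAB genes. In limma's F test over the 3 lines, with control or mimic as a term, 40 of 51 RAB genes were called (adjusted p under 0.05), or 78.4%, beside 67.5% of all genes tested. The 2 arrays of a line stand for it in this test, so its p-values rest on the spread left after line and treatment. In limma that spread is combined with a value shared over all tested genes. A range of line means of at least 1 was found in 9 RAB genes with such a call, 17.6%, beside 23.7% of all genes, and the median range was 0.55 beside 0.54. As a family the RAB genes thus had a spread between lines near that of other genes. Between A172 and T98G, 14 RAB genes were higher in A172 and 10 in T98G (27.5% and 19.6%, beside 25% and 25.5% of all genes, limma with adjusted p under 0.05). Between A172 and U87MG, 12 were higher in A172 and 17 in U87MG (23.5% and 33.3%, beside 27.2% and 27.0%). Between T98G and U87MG, 10 were higher in T98G and 18 in U87MG (19.6% and 35.3%, beside 23.6% and 23.5%). Of the 40, 19 were highest in U87MG, 14 in A172 and 7 in T98G, a count that was not made over all genes. Leaving out the U87MG arrays left 24 called between A172 and T98G, in a fit with 1 residual degree of freedom. The share of all genes called there was not counted, so the lower number is not a result about the RAB genes.

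The widest range belonged to RAB27B, the secretory RAB named above, which was high in U87MG. It read 10.78 and 10.70 on the U87MG control and mimic arrays, 6.64 and 6.64 in A172, and 6.93 and 6.82 in T98G. U87MG was 17.1-fold above A172 (difference of line means 4.10, adjusted p = 5.72e-07 in limma's F test), and A172 and T98G differed by 0.23 at adjusted p = 0.0667. RAB27A was also lowest in A172, at 7.05 and 7.06, with T98G at 8.13 and 7.92 and U87MG at 8.46 and 8.20. RAB27A differed between each pair of lines, though between T98G and U87MG only by 0.30 (adjusted p = 0.0493).

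RAB3B, a RAB of vesicle release, was low in T98G. It read 6.13 and 5.85 there on the control and mimic arrays, against 8.72 and 8.61 in A172 and 8.90 and 9.06 in U87MG. The range of line means was 2.99, or 7.95-fold (adjusted p = 5.37e-06 in limma's F test), and A172 and U87MG differed by 0.31 at adjusted p = 0.0692. RAB15, a RAB of endosomes best known in neurons, was high in A172, at 8.13 and 7.95, against 6.16 and 5.97 in T98G and 5.32 and 5.47 in U87MG. All 3 pairs of lines differed in RAB15 (adjusted p at most 0.00307), and A172 was 6.26-fold above U87MG.

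RAB4A was high in A172, whose mean of 6.84 was 2.80-fold above that of T98G, at 5.35. U87MG, at 5.40, did not separate from T98G (difference 0.05, adjusted p = 0.689). RAB31 was lowest in A172 and highest in U87MG, with line means in A172, T98G and U87MG of 9.19, 10.38 and 11.04 that differed in each pair (adjusted p at most 0.00145). RAB8B had its lowest mean in A172, 7.49, against 8.90 in T98G and 8.47 in U87MG. RAB30 and RAB6A, both of the Golgi, were lowest in U87MG. In the order A172, T98G, U87MG the line means of RAB30 were 7.17, 7.69 and 5.53, and those of RAB6A 9.15, 8.92 and 7.98. The A172 and T98G means did not separate in either (adjusted p = 0.0542 for RAB30 and 0.0737 for RAB6A). RAB23 was highest in U87MG, at 7.70, against 7.01 in A172 and 6.74 in T98G.

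**Figure D3:**
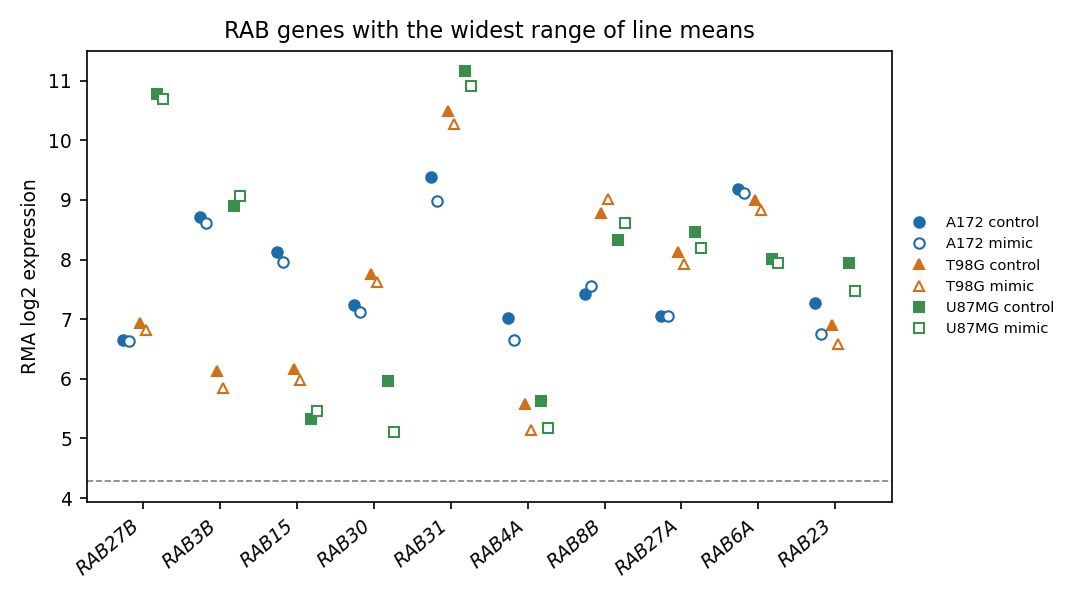
RMA log2 level (vertical axis) of the 10 RAB genes with the widest range of line means, with filled symbols for control and open symbols for mimic arrays. The dashed line is the filter level, 4.28. RAB27B stands at 10.78 and 10.70 in U87MG and under 7 in the other lines, while RAB3B is lowest in T98G.

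Among the 4 genes that fell, line and treatment could be set side by side. RAB1A had no call between lines (adjusted p = 0.146 in limma's F test). Its range of line means was 0.26, or 1.20-fold, smaller than its drop with the mimic. RAB18 had a range of 0.28 (adjusted p = 0.0477), also smaller than its drop. RAB28 and RAB22A ranged by 0.88 and 0.64, both highest in U87MG and lowest in T98G (adjusted p = 0.000377 and 0.0034). The range was smaller than the drop in RAB28 (change -1.02) and larger in RAB22A (change -0.55).

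Genes that regulate or read the RAB proteins were taken from 5 lists of 153 symbols, of which 132 were tested. In these lists 1 gene fell and 0 rose in limma (11 and 9 at an unadjusted p under 0.05), 0.758% called in either direction beside 1.11% of all genes tested, and the median change was 0.01. The gene that fell was BICD2, an adaptor that RAB6 uses to couple Golgi vesicles to dynein. It read 7.25, 7.76 and 7.67 on the control arrays of A172, T98G and U87MG and 6.41, 6.95 and 7.21 on the mimic arrays, every mimic array below every control array. Its change was -0.70 ± 0.21 (SD, n = 3; adjusted p = 0.0311 in limma), or 1.63-fold lower, and the call was lost without any 1 of the lines (adjusted p from 0.061 to 0.107) and with no filter (0.0655). BICD1, its relative, was at -0.07.

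Of 44 tested effectors BICD2 was thus the one that fell. RAB11FIP2, which links RAB11 to recycling vesicles, was next, with control levels of 8.11, 7.06 and 7.65 and mimic levels of 7.69, 6.32 and 7.25. Its change was -0.52 ± 0.19, at adjusted p = 0.0698. APPL1, an effector of RAB5, was at -0.30 (adjusted p = 0.155), and EEA1, the tether that RAB5 and RAB22A recruit, at 0.23 (adjusted p = 0.296). GOLGA2 and GOLGA5, Golgi tethers that bind RAB1 proteins, were at -0.04 and 0.03. BICD1, APPL1, EEA1, GOLGA2, GOLGA5 and RAB11FIP2 were named after their values were seen.

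None of the exchange factors (34 tested, median 0.04), TRAPP subunits (14, median 0.02), GTPase activating proteins (34, median 0.02) or genes of prenylation and membrane extraction (6, median -0.02) passed. TRAPP is the complex that activates RAB1, and its member of smallest p was TRAPPC6B at -0.27 ± 0.04 (adjusted p = 0.196). Among exchange factors this was SMCR8 at 0.29 (adjusted p = 0.201), and RAB3GAP1 and RAB3GAP2, which together activate RAB18, were at 0.13 and 0.14. Among GTPase activating proteins it was TBC1D24 at -0.30 (adjusted p = 0.23), and TBC1D20, which acts on RAB1 and RAB18, was at 0.11. GDI2, which extracts RAB proteins from membranes, was at -0.15 (adjusted p = 0.468). RAB3GAP1, RAB3GAP2 and TBC1D20 were likewise named after their values were seen.

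**Figure D4:**
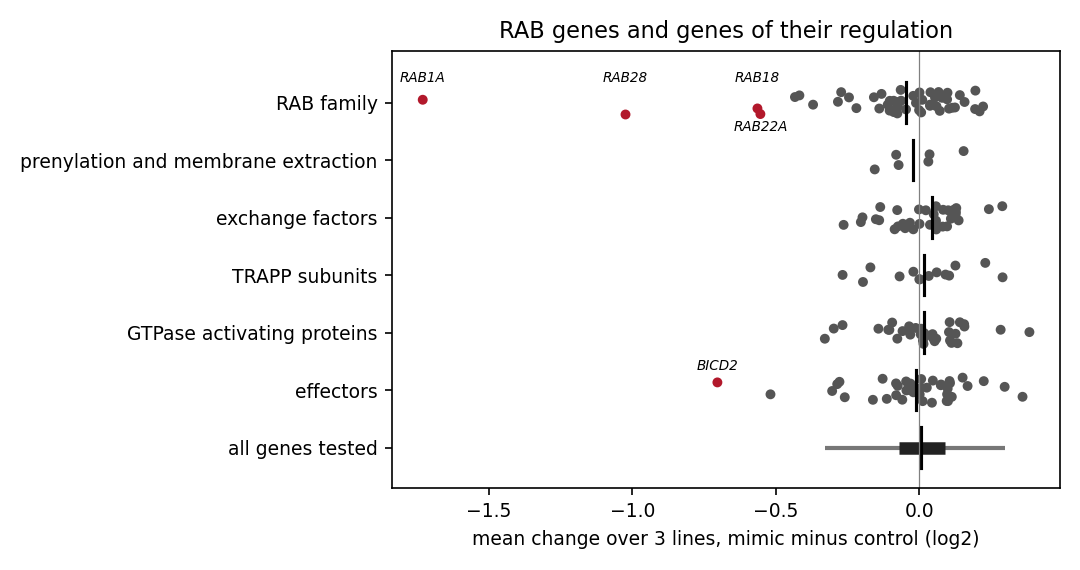
Mean change over the 3 lines (log2, mimic minus control) of each tested RAB gene and each tested gene of the 5 lists, with genes past the adjusted threshold in red and a black bar at each median. The bottom row shows all 13795 genes, its thick bar the middle 50% and its thin bar the central 95%. The 4 RAB genes in red and BICD2 lie to the left of that thin bar, as do RAB23, RAB4A, RAB30, RAB11FIP2 and TBC1D19, which did not pass the test. To its right lie TBC1D23 and SYTL5, at 0.38 and 0.36, which did not pass either.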

How the data were processed

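The deposited table holds log2 values of 33297 probe sets on 6 arrays, which the authors made with RMA from the package oligo in R 3.0.1 per the submitters' processing notes. The scanner files were not used here, and the values were taken as they stood. RMA forces the probe values of all arrays to 1 distribution, so a shift shared by most genes would be largely lost. The array's platform annotation gave 1 symbol for 19460 probe sets, and 19429 of these were matched to RefSeq (GRCh38.p14, names only) by gene identifier. The 23 Y-linked genes were left out, the brightest probe set of each gene was kept, and the lowest 25% of genes by mean were dropped.

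Mimic was compared with control in limma 3.58.1 (R 4.3.3; lmFit, eBayes, two-sided, cell line as a block, 2 residual degrees of freedom), fitted on all genes and tested on simulated data. The pairing by line comes from the labels, and deviations from the group means correlated within a line with r from 0.951 to 0.958. Across lines r was at most -0.438, but removing the group means forces negative values there once those within a line are high. The p-values set the change against the spread of the response between lines, which eBayes combines with a prior shared over all tested genes. That prior carried 4.56 degrees of freedom, more than the 2 of each gene itself. For RAB18 the SD over the lines was 0.0026, while its standard error in limma was 0.070. The number of arrays limits the precision. The RAB genes, role groups and lists were chosen with earlier results of these data known. The genes to name were RAB1A, RAB28, RAB18 and RAB22A, those called or different by at least 0.5 in every line, and the 10 called between lines with the widest range of line means. In each list they were called genes or the one of smallest p. All array values of RAB1B and RAB7A were added after they were seen. A planned search for seed matches in messages was not made. The alternatives left out a line, the block or the filter, raised the filter to 50%, let the prior follow expression, averaged probe sets, or rescaled the arrays.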

Additional observations from a re-analysis of the deposited data

How the results depend on the processing

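The falls of RAB1A, RAB28, RAB18 and RAB22A kept their sign in every alternative in which they were tested, with changes from -1.80 to -1.64, -1.04 to -1.01, -0.58 to -0.56 and -0.62 to -0.49, and were called in 8 of 10, 7 of 9, 5 of 10 and 6 of 10 of them. The number of RAB genes called lower was 4 in the reported fit, 0 with no replicate block, 2 with no filter and 7 with a variance prior that follows expression, which adds RAB4A, RAB23 and RAB31 and calls 1 gene, RAB7A, higher (0.19, adjusted p = 0.0238). Without 1 line it was 0 to 3. Over all genes, 109 were called lower in the reported fit, 0 with no replicate block, 45 with no filter and 301 with that prior. Without 1 line the all-gene number was 0 to 79. The cell line is the pairing: without it as a block the adjusted p was 0.561 for RAB1A and 1.0 for each of the other 3 falls. The median change of the RAB genes was -0.000361 with the lower 50% of genes left out, where 39 RAB genes were tested, and -0.03 to -0.0095 without 1 line, against -0.05 in the reported fit. The number called between lines was 24 to 32 without 1 line, when only 2 lines are compared, and was not counted over all genes there. The number of list genes called, 1 in the reported fit, was 2 with arrays centred on their medians, with repeated quantile normalization and with the lower 50% left out (BICD2 and RAB11FIP2 each time), 3 with the variance prior that follows expression (also APPL1), 0 with no filter, 0 with no replicate block and 0 without any 1 line. A fit without a line has 1 residual degree of freedom, so a lost call there does not show that a change rests on that line. Centring arrays on their medians moved the changes by -0.02 and turned the sign of RAB2B, RAB8A and RAB9A, and repeated quantile normalization that of RAB1B and RAB11B, all within 0.02 of 0.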

Other observations

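Proteins related to the RAB family by sequence but outside its numbered names were looked at after the RAB values had been seen. Of 7 such genes, 5 were measured by a probe set of their own, and limma called 0 of them with the mimic (0 at an unadjusted p under 0.05). RABL3 was at 0.09 ± 0.03 (SD, n = 3), RABL6 at 0.03 ± 0.15 and RASEF, a large RAB with calcium-binding domains, at 0.01 ± 0.16. IFT22 and IFT27, the RAB-like subunits of the intraflagellar transport complex of cilia, were at 0.00 ± 0.03 and -0.11 ± 0.10. Between lines, RASEF had the widest range, its A172, T98G and U87MG means being 5.88, 4.90 and 6.48 (adjusted p = 6.92e-05 in limma's F test).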
